A study of Mus musculus with 6 samples.

Results

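H3K4me3 regions of intermediate width that were called in Atg5 knockout CD8+ tumour-infiltrating lymphocytes, and that no region of the wild-type list touched, are described here. They were chosen from the peak list of the knockout library by place and width: chromosomes 1 to 19 and X, a width of at least 1000 and under 6000 bp, and no overlap of 1 bp or more with a wild-type region. The choice gave 3742 regions, which is 15.0% of the 25019 knockout regions of that width and part of 46547 knockout regions in all. They are called knockout-only regions below, which says that the wild-type list holds no call there and not that the mark was absent. The cells came from E0771 tumours, a mouse mammary tumour line, on a C57BL/6 strain background, either with Cre-mediated deletion of Atg5 (Atg5-/-) or wild type for it. Atg5 encodes a protein needed to build autophagosomes. No label names the promoter that drove Cre, the age of the mice or any pooling of animals. Each genotype had 1 H3K4me3 library made by chromatin immunoprecipitation after micrococcal nuclease digestion, so no difference between genotypes has a replicate check and no p-value is given. The peak lists carry no sequencing depth, and the 95% intervals below (exact, Clopper-Pearson) cover counting error only. They treat each region or promoter as a separate observation, although neighbouring ones are not, so they may be too narrow. Of the genes that define the labelled cell type, Cd8a had 6376 bp under knockout regions and 0 bp under wild-type regions, and Cd8b1 had 15173 bp in the knockout against 705 bp in the wild type. In bulk samples such as these, fewer cells of a type and less of the mark per cell cannot be told apart.

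Trimethylation of lysine 4 on histone H3 is laid down around the starts of active genes, mostly over CpG-rich DNA. In a cell type it can also spread from the start into the body of genes that define that cell. Smaller amounts are found at strong enhancers. In cytotoxic T cells, broad H3K4me3 is known at genes of the T cell receptor, its signalling chain and the factors that keep T cell identity.

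Sequence was examined where a knockout-only region covered the start of a gene. RefSeq promoter windows of GRCm38.p6, reaching from 250 bases before the start to 50 bases after it, were available for 21045 starts of 17274 coding genes, and 183 of those starts (0.870%), in 166 genes, lay under a knockout-only region. The windows printed here belong to genes with known functions in T cells and killer cells, chosen after their values were seen, and the last one is a developmental gene for contrast. Txk encodes a kinase of T cell receptor signalling, Nkg7 a granule membrane protein, Prf1 the pore-forming protein perforin, Gzmb the protease granzyme B and Cd3e a chain of the CD3 complex. Lhx2 encodes a homeodomain factor of embryonic development. Each is written 5′ to 3′ on the transcribed strand, with CG dinucleotides in capitals.
Txk, chr5:72752728-72753027, minus strand: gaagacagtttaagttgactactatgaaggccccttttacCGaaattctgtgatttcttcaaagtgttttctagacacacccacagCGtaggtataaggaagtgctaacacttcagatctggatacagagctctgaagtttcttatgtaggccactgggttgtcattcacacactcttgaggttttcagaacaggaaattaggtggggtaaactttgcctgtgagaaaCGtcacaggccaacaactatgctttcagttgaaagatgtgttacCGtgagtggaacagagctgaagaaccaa
Nkg7, chr7:43436888-43437187, plus strand: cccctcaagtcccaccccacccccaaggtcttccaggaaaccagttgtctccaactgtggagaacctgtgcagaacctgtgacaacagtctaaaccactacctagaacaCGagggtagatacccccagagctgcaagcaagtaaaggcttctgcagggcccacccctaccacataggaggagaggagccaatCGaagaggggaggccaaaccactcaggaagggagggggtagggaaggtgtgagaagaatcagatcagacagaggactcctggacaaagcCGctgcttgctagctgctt
Prf1, chr10:61297586-61297885, plus strand: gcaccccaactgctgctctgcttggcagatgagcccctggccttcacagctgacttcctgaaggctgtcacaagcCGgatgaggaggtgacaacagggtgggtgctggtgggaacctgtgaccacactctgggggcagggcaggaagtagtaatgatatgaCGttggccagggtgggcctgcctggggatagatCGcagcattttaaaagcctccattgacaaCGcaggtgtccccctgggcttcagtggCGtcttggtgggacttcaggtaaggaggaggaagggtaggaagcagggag
Gzmb, chr14:56262285-56262584, minus strand: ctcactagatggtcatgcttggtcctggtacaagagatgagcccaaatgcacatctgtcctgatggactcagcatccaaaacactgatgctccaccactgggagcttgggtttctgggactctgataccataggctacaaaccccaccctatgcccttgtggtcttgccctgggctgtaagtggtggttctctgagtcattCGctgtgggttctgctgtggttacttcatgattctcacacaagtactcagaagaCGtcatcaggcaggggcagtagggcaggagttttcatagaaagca
Cd3e, chr9:45009562-45009861, minus strand: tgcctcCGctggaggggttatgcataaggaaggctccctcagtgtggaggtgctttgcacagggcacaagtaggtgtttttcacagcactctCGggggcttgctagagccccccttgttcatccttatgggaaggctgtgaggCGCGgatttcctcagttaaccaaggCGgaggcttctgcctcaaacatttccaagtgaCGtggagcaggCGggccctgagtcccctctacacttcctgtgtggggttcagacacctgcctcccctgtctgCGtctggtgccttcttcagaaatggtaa
Lhx2, chr2:38351058-38351357, plus strand: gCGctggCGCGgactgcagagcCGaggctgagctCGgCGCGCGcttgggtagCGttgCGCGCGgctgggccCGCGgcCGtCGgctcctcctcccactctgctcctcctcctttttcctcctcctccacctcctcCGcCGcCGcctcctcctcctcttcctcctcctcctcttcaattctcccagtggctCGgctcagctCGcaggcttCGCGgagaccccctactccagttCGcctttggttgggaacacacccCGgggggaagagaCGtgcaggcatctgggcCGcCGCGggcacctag

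The width limits decide much of what is counted. Without a partner in the other list were 24.8% of knockout regions at least 1000 and under 1500 bp wide (23.9 to 25.8%), against 12.6% of wild-type regions of that width (11.9 to 13.3%). From 2000 to under 3000 bp the shares were 7.96% of knockout regions (7.33 to 8.62%) and 0.525% of wild-type regions (0.372 to 0.720%). Below 500 bp the order was the other way, with 40.9% of knockout regions and 69.2% of wild-type regions unmatched. Over the whole range used here, the wild-type list held 1325 regions with no knockout overlap, 5.11% of 25908. These shares describe the choice of the regions and are not a result about them.

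**Figure D1:**
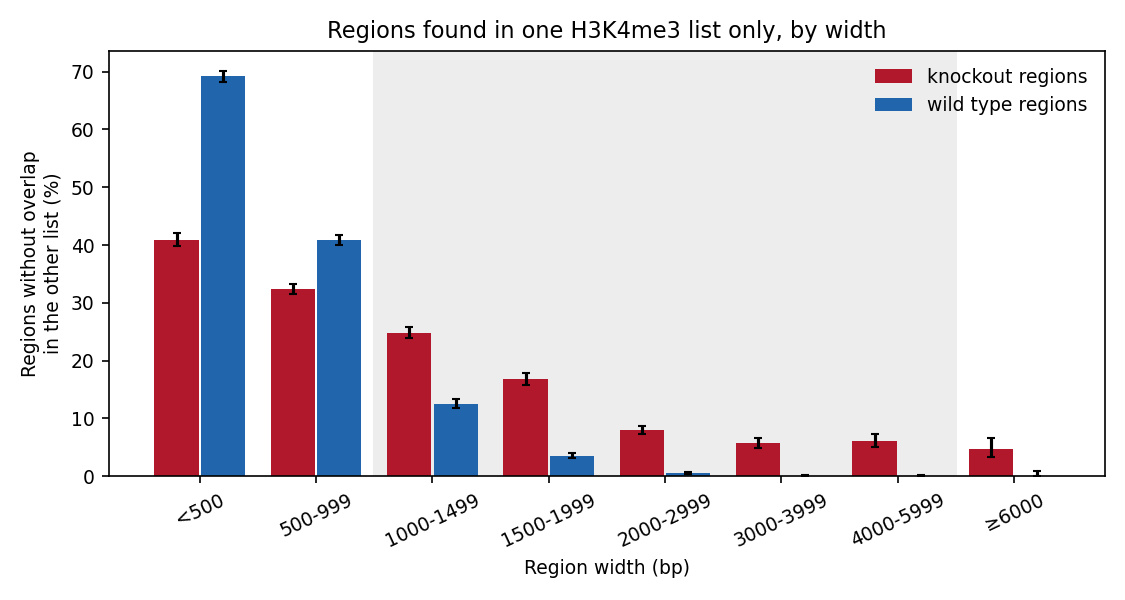
Percent of regions without overlap in the other list (y axis) by region width in bp (x axis), for the knockout list and the wild-type list, with exact 95% intervals; the shaded classes are those used here. Knockout regions from 1000 to under 1500 bp were unmatched in 24.8% of cases and wild-type regions in 12.6%, whereas below 500 bp the shares were 40.9% and 69.2%.

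The values at the limits show what the rule kept and left out. The knockout-only regions at the lower limit were 1000 bp wide with folds of 8.02 and 7.25, the authors' ratio of summit signal to local background, and the next narrower ones had folds of 8.84 and 8.02. At the upper limit the widths were 5877 and 5866 bp inside and 6030 and 6059 bp outside. The nearest wild-type region lay 5 and 40 bp away from the closest knockout-only regions, while the regions that just failed the rule shared 10 and 13 bp with a wild-type region. The median distance to a wild-type region was 8484 bp, 6.49% of knockout-only regions had one within 1 kb, and 91.0% had one within 50 kb.

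Knockout-only regions were weak to moderate calls within their own list. Their median width was 1444 bp, and their median fold was 7.19, with a range of 2.65 to 25.7. The 21277 shared regions of the same width class had a median width of 2008 bp and a median fold of 19.3. Because of this gap, the 3742 shared mid-width knockout regions with the lowest −log10 q are given beside the knockout-only regions, as a set of equal number and similar median strength. Those weakest shared regions had a median fold of 6.63 and a median −log10 q of 13.9, against 14.9 for the knockout-only regions. They were picked by −log10 q, which ends at 21.1 in them and at 103.6 in the knockout-only regions. This set was added after the values were seen.

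The printed promoters of the T cell genes were poor in CpG and that of Lhx2 was rich. The windows held 4 CG dinucleotides at Txk, 3 at Nkg7, 5 at Prf1, 2 at Gzmb and 8 at Cd3e, against 29 at Lhx2. The ratio of observed CpG to that expected from the C and G content was 0.296 at Txk, 0.129 at Nkg7, 0.203 at Prf1, 0.103 at Gzmb and 0.333 at Cd3e, and 0.835 at Lhx2. Lhx2 was 1 of 11 homeobox and related developmental genes with a start under a knockout-only region. Their ratios ran from 0.252 at Olig3 to 0.961, with a median of 0.744, so not all were rich. Over the 183 promoters the median ratio was 0.473, against 0.585 for the 263 promoters under the weakest shared regions and 0.779 for the 10648 under all shared mid-width knockout regions. A ratio below 0.6 was found in 60.1% of promoters under knockout-only regions (52.6 to 67.3%), in 50.6% under the weakest shared regions (44.4 to 56.8%) and in 23.9% under all shared regions (23.1 to 24.7%). Among all 21045 coding promoters that share was 51.9%. The interval of the knockout-only regions lay above that of all shared regions and overlapped that of the weakest shared regions. Under wild-type-only regions, 14 of 15 promoters had a ratio below 0.6 (93.3%, 68.1 to 99.8%), with a median ratio of 0.238. A low ratio was thus not particular to knockout-only regions.

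**Figure D2:**
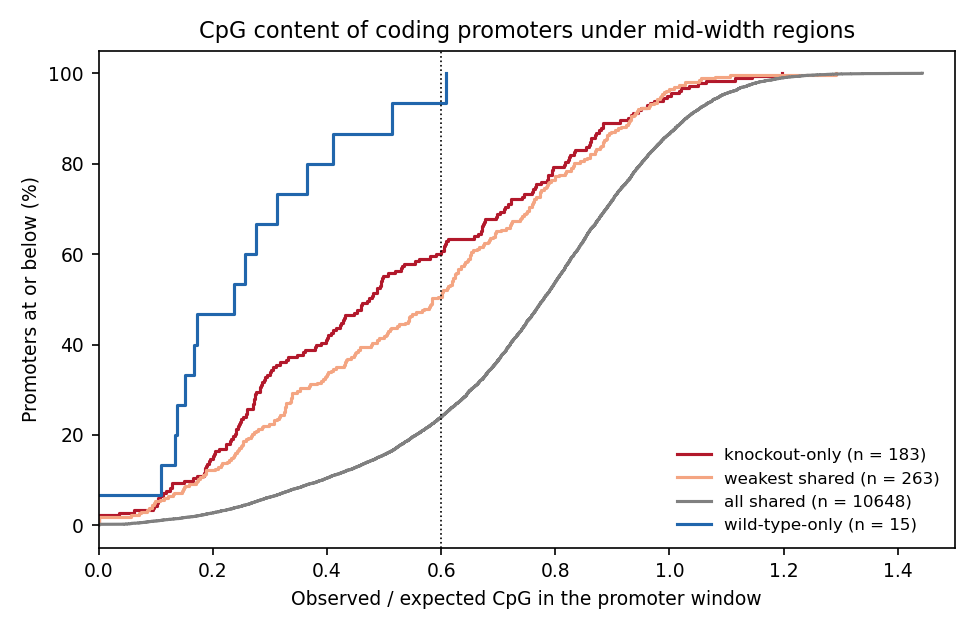
Cumulative percent of coding promoters (y axis) at or below an observed to expected CpG ratio (x axis), for promoters under knockout-only, weakest shared, all shared and wild-type-only mid-width regions; the dotted line marks a ratio of 0.6. The curve of the 183 promoters under knockout-only regions passes 0.6 at 60.1%, and the curve of all 10648 under shared regions passes it at 23.9%.

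Short motifs of lymphocyte factors were counted in the same windows on both strands. The letters CAGGTG, an E-box, occurred in 31.7% of promoters under knockout-only regions (25.03 to 39.0%), in 18.6% under the weakest shared regions (14.1 to 23.9%) and in 19.9% of all coding promoters. The RUNX letters TGTGGTT occurred in 8.20% (4.66 to 13.2%), 3.80% (1.84 to 6.88%) and 4.74% of these sets in that order. The TCF and LEF letters CTTTGA occurred in 16.9%, 12.5% and 14.4%, and the ETS letters AGGAAG in 37.7%, 36.1% and 34.1%. The longer ETS letters CCGGAAG, which contain a CG, occurred in 4.92% of promoters under knockout-only regions, 6.08% under the weakest shared regions and 11.7% of all coding promoters. Both ETS forms share the letters GGAAG. The E-box was the motif whose interval under knockout-only regions lay above that of the weakest shared regions, by a small margin (25.03 against 23.9%). The motifs were chosen after the data were seen. The 183 windows come from 166 genes and some overlap, as at Mest and Ly6c2, so they are not separate observations. The Gzmb window printed above holds the RUNX letters and the Txk window the TCF and LEF letters. A match describes the letters and not a bound site.

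Most knockout-only regions lay away from gene starts and inside genes. Of the 3742, 57.5% (55.9 to 59.1%) lay in a coding gene more than 1 kb from either of its ends, 32.1% (30.7 to 33.7%) lay outside coding genes and 10.3% (9.36 to 11.3%) lay within 1 kb of a gene end. For the weakest shared regions these shares were 43.6%, 43.6% and 12.8%. For all shared mid-width knockout regions they were 24.6%, 26.4% and 49.0%, and for the wild-type-only regions 43.9%, 51.3% and 4.75%. The place inside genes was the one where the interval of the knockout-only regions lay above those of the 3 other sets. Several regions can lie in 1 gene, so this is a description and not a test. Starts of any RefSeq gene were covered by 6.84% of knockout-only regions, 9.30% of the weakest shared regions and 2.72% of wild-type-only regions. With only the 20000 regions of highest −log10 q kept in each list, 43.0% of the unmatched mid-width knockout regions lay inside genes, 31.4% at a gene end and 25.6% outside.

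Within genes the regions were spread from the front backwards. For 1762 knockout-only regions inside a gene of known strand, the median distance from the 5′ end of the gene was 31.0 kb. Of 4 equal parts along the gene, the first held 27.8% of them (25.7 to 29.9%), the second 31.6%, the third 23.0% and the last 17.7%. The weakest shared regions had 32.4% in the first part (29.8 to 35.01%) and 16.1% in the last. Outside coding genes, the 1203 knockout-only regions lay a median of 26585 bp from the nearest coding gene, 226 of them lay more than 100 kb away, and 300 fell in a long noncoding RNA gene.

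By chromosome, the share of mid-width knockout regions that was knockout-only ran from 10.0% on chromosome 8 (8.48 to 11.8%) to 18.9% on chromosome 9 (16.8 to 21.1%). Chromosome X held 80 of them, 13.9% of its mid-width knockout regions.

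Knockout-only regions lay in groups more often than the weakest shared regions, though less often than all shared regions, which are more numerous. Another knockout-only region lay within 10 kb of 33.2% of them (31.7 to 34.7%) and within 50 kb of 58.7% (57.1 to 60.3%). Among the weakest shared regions, equal in number, the shares were 15.5% (14.4 to 16.7%) and 41.8% (40.2 to 43.4%). That set was cut by −log10 q, so stronger shared neighbours were not counted in it. This lowers its shares and group sizes by construction, and the gap is a description. The 1325 wild-type-only regions reached 5.96% and 19.1%, but they are fewer and so farther apart. All 21277 shared mid-width knockout regions reached 41.6% and 82.8%, but they are more and so closer together. Chained over gaps of up to 50 kb, the knockout-only regions formed 2277 groups, of which 1545 were single regions and 87 held 5 or more. The weakest shared regions formed 29 groups of 5 or more with at most 7 in a group, against at most 15 for the knockout-only regions. All shared mid-width knockout regions formed 1119 such groups with at most 81 in a group. Wide knockout regions, of 6000 bp or more, were also nearer, with 21.4% of knockout-only regions (20.1 to 22.8%) and 11.2% of the weakest shared regions (10.2 to 12.3%) within 50 kb of one.

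**Figure D3:**
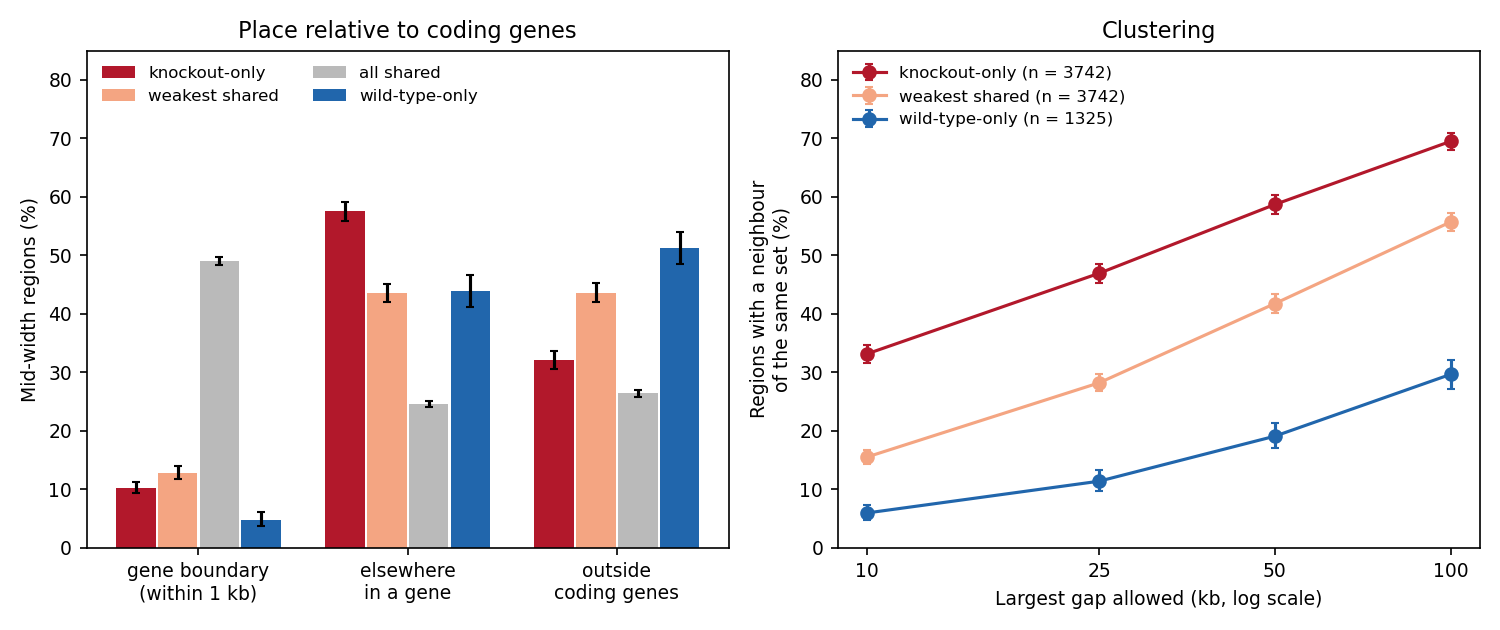
Left, percent of mid-width regions (y axis) at a coding gene end, elsewhere in a gene or outside coding genes, for 4 sets of regions; right, percent of regions (y axis) with a neighbour of the same set within 10, 25, 50 or 100 kb (x axis, log scale), both with exact 95% intervals. Knockout-only regions lay inside genes in 57.5% of cases and had a neighbour within 50 kb in 58.7%, against 43.6% and 41.8% for the weakest shared regions.

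The 87 groups of 5 or more held 586 regions, 15.7% of the knockout-only regions. Knockout regions of any width covered a median of 29.5% of a group's span (7.60 to 62.8%), and wild-type regions covered a median of 2.96% (0 to 20.8%). In 19 of the 87 groups the wild-type list held no region at all inside the span, and in none did it cover more than the knockout list. Since a group was built from regions absent from the wild-type list, these values describe the groups. In 16 of the 87 groups no knockout-only region lay in a coding gene or within 1 kb of one, although in 1 of these, on chromosome 1, the coding gene Arl4c lay inside the span between the regions.

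The group with the most regions lay in the Ms4a cluster on chromosome 19 (11354453 to 11590515), a family of membrane-spanning proteins of lymphoid and myeloid cells. It held 15 knockout-only regions with folds of 3.87 to 16.9, touching Ms4a4a, Ms4a4b, Ms4a4c, Ms4a4d and Ms4a6d, with 109103 bp covered in the knockout against 9702 bp in the wild type. Reads from these related genes may not be told apart, and no label states how such reads were filtered. The next group lay around Tgfbr2, a receptor of TGF-beta that restrains T cells (chromosome 9, 116113835 to 116370303), with 14 regions and 45881 bp covered in the knockout against 5524 bp in the wild type. On chromosome 14 (121894101 to 122074205) 13 regions touched Ubac2 and Timm8a2, with 60896 bp against 6791 bp. At Peli1, a ubiquitin ligase that limits T cell receptor signalling, 11 regions ran from the gene into the sequence beyond it. Their span (chromosome 11, 21116816 to 21181648) had 26165 bp covered in the knockout against 0 bp in the wild type. The strongest of these regions, with a fold of 16.3, lay outside Peli1, 21373 bp from it. Over Peli1 and the 1 kb on either side, 38724 bp were covered in the knockout against 4380 bp in the wild type.

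The other groups of 10 or 11 regions lay at Prkch, a protein kinase C of T cells, at Jak1, the kinase of many cytokine receptors, and over N4bp2, Rhoh and Chrna9, where Rhoh encodes a GTPase that T cell receptor signalling needs. Further groups lay at Ikzf1, the lymphoid factor Ikaros, at Prex1, an exchange factor for Rac, and at Foxp1, a forkhead factor that keeps T cells quiescent. A group at Klf13, a zinc finger factor, also had 10 regions, with 42563 bp covered in the knockout against 11761 bp in the wild type. Covered length in the spans was 56793 bp in the knockout against 12878 bp in the wild type at Prkch, and 50756 bp against 12711 bp at Jak1. It was 42867 bp in the knockout against 6334 bp in the wild type at Ikzf1, and 32796 bp against 2261 bp at Foxp1. The wild-type list thus held some coverage in the spans of these 4 groups.

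Counted by gene, 1695 of 21631 coding genes (7.84%) had a knockout-only region in the gene or within 1 kb of it, 483 of them had 2 or more, and 57 had 5 or more. These genes were long, with a median of 60.1 kb against 17.3 kb for all coding genes. The weakest shared regions touched 1744 genes (8.06%) with a median length of 61.9 kb, so the median gene length was close in the 2 sets. The wild-type-only regions touched 589 genes (2.72%), with a median of 86.8 kb.

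The 10 genes with the most knockout-only regions were Foxp1 with 14, Ubac2 and Prkch with 10 each, Pip4k2a, Prex1 and Jak1 with 9 each, and Ikzf1, Ankrd11, Itpk1 and Gtf2i with 8 each. Pip4k2a and Itpk1 encode kinases of phosphoinositides and inositol phosphates, Ankrd11 a chromatin regulator and Gtf2i a transcription factor. Within 1 kb of Foxp1, knockout regions covered 73798 bp and wild-type regions 28077 bp. For Ikzf1 the values were 40100 bp in the knockout against 7480 bp in the wild type, for Pip4k2a 26411 and 3605 bp, and for Jak1 43747 and 8993 bp. None of the 10 held a wild-type-only region of this width class, which 2.72% of all coding genes did. Folds of their knockout-only regions stayed between 3.49 and 15.8.

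Genes with knockout-only regions mostly had a marked start in both libraries. Of the 1369 such genes with a RefSeq start in the table, 67.6% (65.1 to 70.1%) had a start under a region in both lists, 17.5% (15.6 to 19.7%) in the knockout list alone, 0.365% in the wild-type list alone and 14.5% in neither. For genes touched by the weakest shared regions, a start was covered in both lists in 69.2% (66.7 to 71.7%) and in the knockout list alone in 8.25% (6.84 to 9.85%). For all coding genes those shares were 54.4% and 4.23%. The knockout-only region itself covered the start in 166 genes, 12.1% of the 1369. By the rule, a start under such a region has no wild-type call. The 17.5% was thus set in part by the choice of the regions, and its gap to 8.25% and 4.23% is a description. At Ikzf1, Jak1, Pip4k2a and Prkcq a start was covered in both lists and the knockout-only regions assigned to the gene lay downstream of it. At Prkcq 1 further region lay upstream of the gene. Prkcq encodes protein kinase C theta of the T cell receptor pathway.

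**Figure D4:**
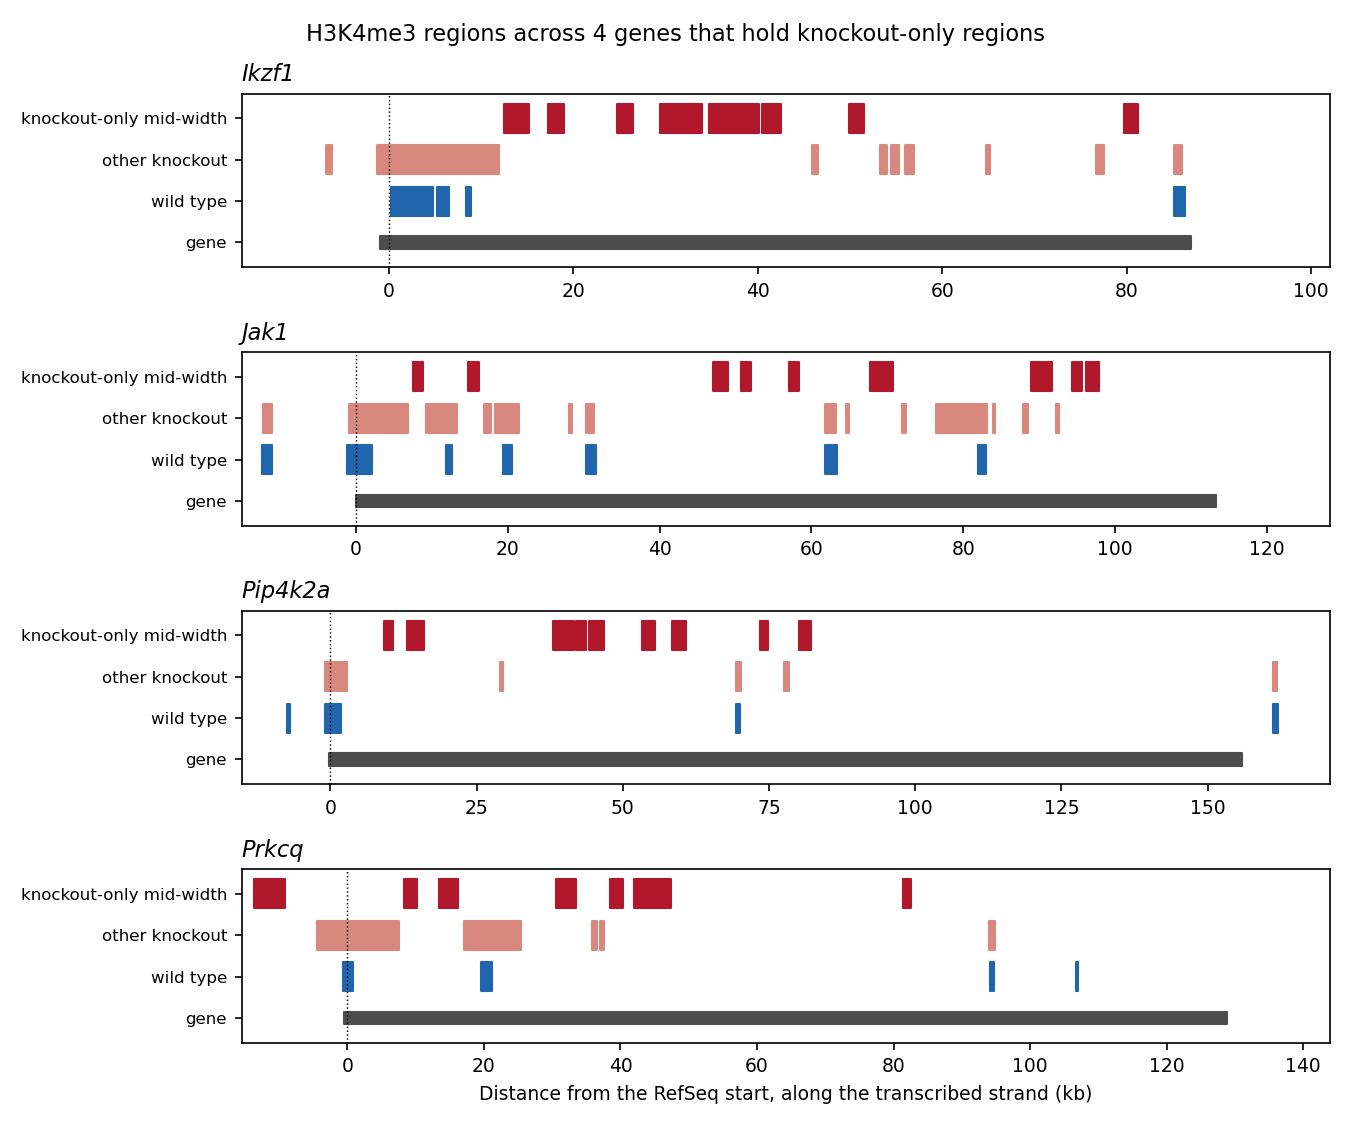
H3K4me3 regions at Ikzf1, Jak1, Pip4k2a and Prkcq by distance in kb from the most upstream RefSeq start along the transcribed strand (x axis), with knockout-only mid-width regions, other knockout regions, wild-type regions and the gene in separate rows. A RefSeq start is covered in both libraries in each gene, while 8 knockout-only regions at Ikzf1, 9 at Jak1, 9 at Pip4k2a and 6 at Prkcq lie in the gene or within 1 kb of it, where the wild-type row is empty.

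T cell identity genes held knockout-only regions at a high density for their length. Of 20 genes, 12 had one, against the 7.84% of all coding genes. The weakest shared regions were found at 2 of the 20 (8.06% of all coding genes) and wild-type-only regions at 0 (2.72%). These counts of 2 and 0 are near the shares of all coding genes. Per Mb of gene and flank the density was 41.0 knockout-only regions in this list and 2.38 over all coding genes, and 3.42 and 2.00 for the weakest shared regions. The wild-type list is empty under a knockout-only region by the rule, so the covered lengths of both libraries given with them are descriptions. The other 8 genes of the list, Cd3d, Cd3g, Cd5, Cd8a, Cd8b1, Cd27, Gata3 and Zap70, were each touched by a knockout region of 6000 bp or more, beyond the width limit. Knockout-only regions made up 24.9% of the covered length in the list. The commitment factor gene Bcl11b had 8793 bp under 5 of them, with 46116 bp covered in the knockout against 6807 bp in the wild type. Cd6, an adhesion receptor, had 7198 bp under 3 and the co-stimulatory receptor gene Cd28 had 6978 bp under 2, with 7737 against 597 bp and 14463 against 1400 bp covered in all. At Cd3e the promoter printed above lay in a region of 4900 bp with a fold of 19.1 (chromosome 9, 45005878 to 45010777), and no wild-type region lay within 1 kb of the gene.

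T cell receptor signalling genes had the highest share of the 18 lists, with 14 of 19 holding a knockout-only region beside 7.84% of all coding genes. Of these genes, 6 of 19 held one of the weakest shared regions (8.06% of all coding genes) and 2 of 19 a wild-type-only region (2.72%). They were long, with a median of 57.0 kb against 17.3 kb for all coding genes, and their density of 18.6 knockout-only regions per Mb was below the 41.0 of the T cell identity list. Prkcq had 15952 bp under 6 knockout-only regions, and 35599 bp covered in the knockout against 3997 bp in the wild type. The adaptor genes Grap2 and Fyb had 8058 and 6539 bp under knockout-only regions, and Tespa1, which acts in thymocyte selection, had 7387 bp. At Tespa1 the wild-type list had no region within 1 kb of the gene. The Fyb region with a fold of 24.3 was among the strongest.

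Genes of CD8 effector function held a knockout-only region in 14 of 26 cases, beside 7.84% of all coding genes. The weakest shared regions were found at 5 of 26 (8.06% of all coding genes) and wild-type-only regions at 0 of 26 (2.72%). The median length of the genes in this list was 8.64 kb. Prf1 had 3 knockout-only regions in the gene or within 1 kb, 2408, 1331 and 1316 bp wide with folds of 19.9, 5.53 and 6.91. They made up the whole 3782 bp covered there in the knockout, against 0 bp in the wild type. Gzmb had 1 region of 2173 bp with a fold of 6.08 over its start and part of the gene, and 0 bp in the wild type. Stat4, which carries the interleukin-12 signal, had 5550 bp under 2 knockout-only regions. Il2ra, the alpha chain of the interleukin-2 receptor, had 5329 bp under 3, and Il18r1, a chain of the interleukin-18 receptor, had 4261 bp under 3. Covered length was 14995 bp in the knockout against 3373 bp in the wild type at Stat4, 10379 against 3868 bp at Il2ra and 11960 against 906 bp at Il18r1. The Ifng region, of 1056 bp, had a fold of 3.08 and lay near the weak end of the range.

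Naive and memory T cell genes held a knockout-only region in 11 of 20 cases, beside 7.84% of all coding genes. The weakest shared regions were found at 4 of 20 (8.06% of all coding genes) and wild-type-only regions at 0 of 20 (2.72%). Besides Foxp1 and Ikzf1, Bach2, a repressor that keeps memory cells undifferentiated, had 16212 bp under 7 knockout-only regions, with 63644 bp covered in the knockout against 20565 bp in the wild type. The survival gene Bcl2 had 12308 bp under 5, with 26052 bp against 6093 bp. Inhibitory receptor and exhaustion genes held a knockout-only region in 8 of 18 cases, beside the same 7.84%. The counts in the comparison sets were 4 of 18 and 0 of 18, beside the same 8.06% and 2.72%. Nfatc1, a factor of the calcium pathway, had 13069 bp under 6 knockout-only regions, and Tox, a factor of exhausted T cells, had 3914 bp under 3. The checkpoint receptor gene Ctla4 had 3735 bp under 2, and Nr4a3, a nuclear receptor induced by T cell receptor signals, had 2638 bp under 1. At Ctla4, 4581 bp were covered in the knockout against 848 bp in the wild type, and at Nr4a3 7384 against 4490 bp. The values were 25960 against 10117 bp at Nfatc1 and 15712 against 3166 bp at Tox.

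Residency and chemokine receptor genes held a knockout-only region in 6 of 13 cases, beside 7.84% of all coding genes. The weakest shared regions were found at 1 of 13 (8.06% of all coding genes) and wild-type-only regions at 0 of 13 (2.72%). The integrin genes Itga4, Itgae and Itga1 had 5589, 3010 and 1418 bp under knockout-only regions, and the chemokine receptor gene Cxcr3 had 1711 bp. Covered length was 12446 bp in the knockout against 2548 bp in the wild type at Itga4 and 15664 against 4757 bp at Itgae. It was 6375 against 4947 bp at Itga1 and 3767 against 833 bp at Cxcr3. Among NK cell genes, several of which killer T cells also use, 4 of 10 held a knockout-only region, beside the same 7.84%. In each comparison set 0 of 10 did, and the density was 42.1 knockout-only regions per Mb. Of the 10 pairs of gene and region behind that density 6 were at Cd226. The adhesion receptor gene Cd226 had 16527 bp under 6 knockout-only regions, with 36370 bp covered in the knockout against 638 bp in the wild type. The lectin receptor genes Klrk1, Klrc1 and Klra1 had 3516, 2478 and 1003 bp under them and 0 bp in the wild type. Genes of these lectin families resemble each other, so reads may be shared between copies. No gene of the Gimap family, GTPases of lymphocytes, held one: 6 of its 8 genes were touched by a knockout region of 6000 bp or more, and knockout coverage was longer in 8 of 8.

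Markers of cells other than lymphocytes held knockout-only regions about as often as all coding genes, of which 7.84% did. They were found at 1 of 20 myeloid genes, 1 of 14 epithelial and mammary tumour genes and 1 of 15 fibroblast and endothelial genes. Among other lymphocytes they were found at 2 of 12 B cell genes and 4 of 12 CD4 and regulatory T cell genes. The weakest shared regions were found at 4 of 20, 5 of 14, 1 of 15, 1 of 12 and 4 of 12 genes of these lists in the same order. Over all coding genes that share was 8.06%. Wild-type-only regions were found at 1 of 20, 1 of 14, 2 of 15, 1 of 12 and 0 of 12 genes of these lists, beside 2.72% of all coding genes. The myeloid gene was Itgam, where 387 bp lay within 1 kb of the gene, the epithelial gene was Cdh1 with 1095 bp, and the endothelial gene was Pecam1 with 5367 bp under 4 regions. Cd4 had 1251 bp under 1 region, and Ikzf2, a factor of regulatory T cells, had 2195 bp under 2. Over the T cell identity list, knockout regions covered 256134 bp and wild-type regions 46181 bp, and the knockout length was the longer in 20 of 20 genes. Over the myeloid list they covered 49551 and 61905 bp, with the knockout longer in 5 genes and the wild type in 14, over the fibroblast and endothelial list 41327 and 49099 bp, and over the epithelial list 21615 and 19685 bp. The 2 libraries thus differed in coverage of T cell, myeloid and stromal markers together. The part of cell makeup in the knockout-only regions was not tested.

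Autophagy genes, which include the deleted gene, held a knockout-only region in 4 of 31 cases, beside 7.84% of all coding genes. Atg5 had 1 such region of 1552 bp with a fold of 6.36 (chromosome 10, 44341054 to 44342605), inside the gene and 37321 bp from the nearest wild-type region. Within 1 kb of Atg5, 3957 bp were covered in the knockout against 2538 bp in the wild type. Without a label for the deleted exons, this coverage is no check of the knockout. Uvrag, a partner of the class III PI3-kinase, had 4053 bp under 3 regions, Atg10 2492 bp under 2 and Pik3c3, the catalytic subunit, 2036 bp under 1. In all, 14914 bp were covered in the knockout against 14491 bp in the wild type at Uvrag. At Atg10 the values were 9967 against 11683 bp, and at Pik3c3 4522 against 2315 bp. Covered length over the autophagy list was longer in the knockout for 17 genes and in the wild type for 13. Glycolysis genes held one in 1 of 27 cases (Slc16a1, a lactate transporter, with 1336 bp), histone methylation enzymes in 1 of 21 (Kmt2a, an H3K4 methyltransferase, with 2747 bp), developmental regulators in 1 of 20 (Lhx2, with 3526 bp) and housekeeping genes in 0 of 18. The weakest shared regions were found at 2 of 31 autophagy genes, 7 of 27 glycolysis genes and 1 of 21 histone methylation enzymes. They were also found at 2 of 20 developmental regulators and 0 of 18 housekeeping genes, beside 8.06% of all coding genes. Wild-type-only regions were found at 1 of 31, 2 of 27, 0 of 21, 1 of 20 and 0 of 18 genes of these lists in the same order, beside 2.72% of all coding genes.

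**Figure D5:**
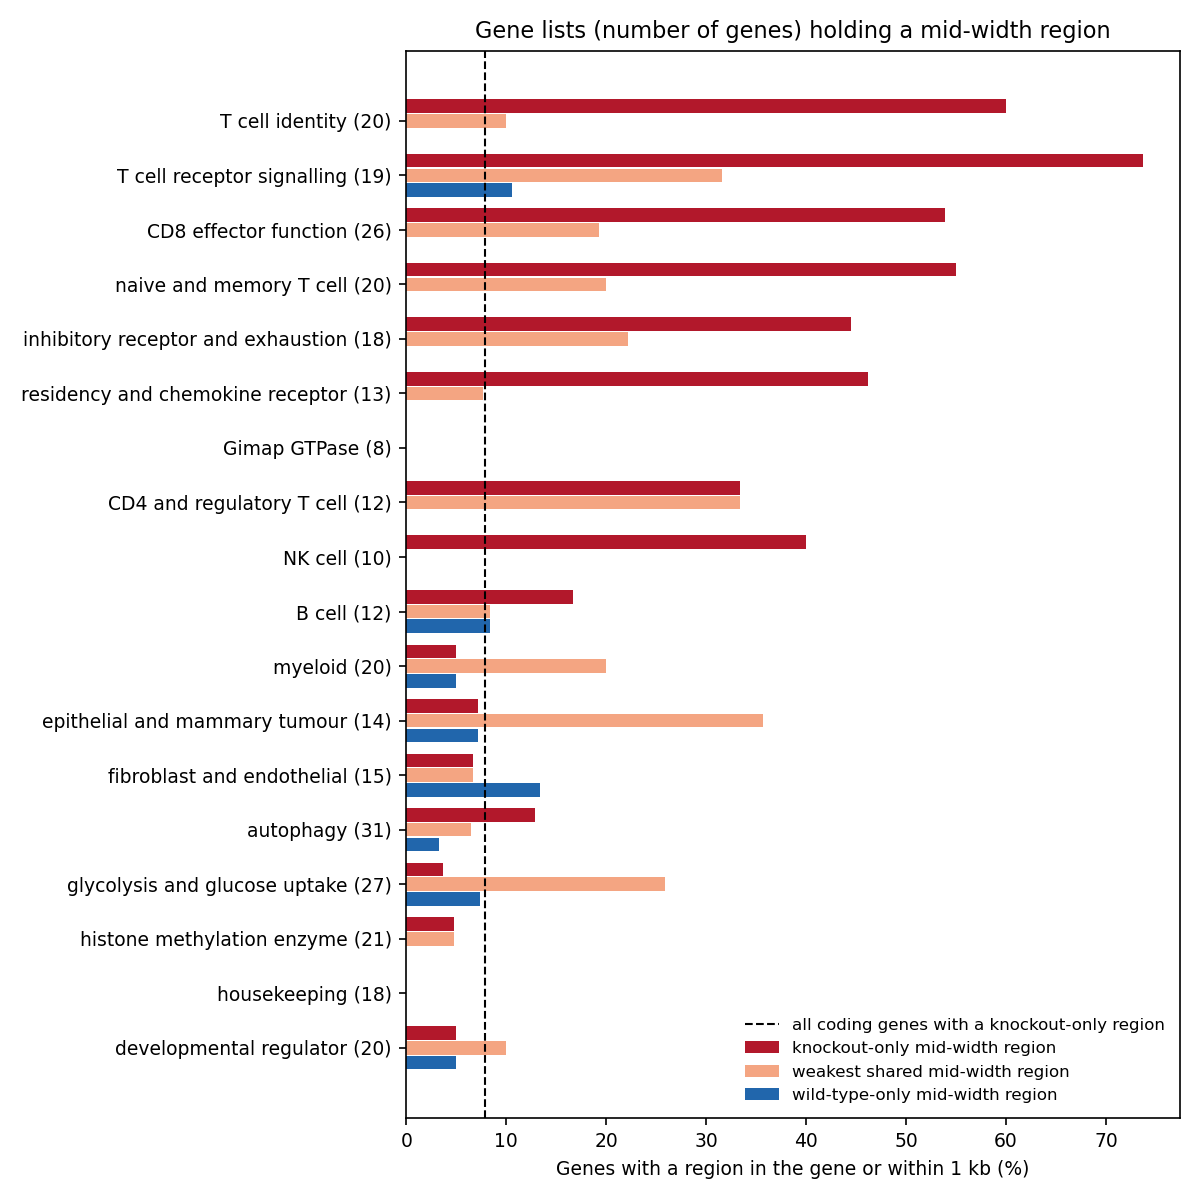
Percent of genes in each list (x axis) with a knockout-only, weakest shared or wild-type-only mid-width region in the gene or within 1 kb; list sizes are in brackets on the y axis, and the dashed line marks the 7.84% of all coding genes with a knockout-only region. T cell identity (12 of 20) and T cell receptor signalling (14 of 19) stand far to the right of the line, while myeloid (1 of 20) and housekeeping (0 of 18) genes do not.

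The 10 knockout-only regions with the highest folds were led by one in Fam149b (chromosome 14, 20377723 to 20380819), 3097 bp wide with a fold of 25.7. Regions at Txk, Cd6, Fyb and Slamf1 followed with folds of 24.9, 24.6, 24.3 and 23.8, and at Txk and Slamf1, a receptor of the SLAM family on lymphocytes, the region covered the gene start. The others lay in Lcn4 (22.4), at the start of the noncoding RNA Gm13842, 3550 bp from Prkab1 (21.8), over the starts of Nkg7 and its neighbour Cldnd2 (21.7), in the co-stimulatory receptor gene Icos (21.6) and in Fam189b (21.5). The Slamf1 region lay 70646 bp from any wild-type region and the Prkab1 one 1614 bp.

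The widest knockout-only region spanned 5877 bp on chromosome 13 (85503934 to 85509810), 214447 bp from its nearest coding gene, Rasa1. Regions of 5866 bp over the start of the interferon-inducible gene Ifi214, of 5861 bp in Sntb1, 5795 bp over the start of Xkrx, 5771 bp in Rnf138 and 5761 bp in Commd8 followed. A region of 5695 bp covered joining segments and the first constant region of the T cell receptor beta locus (chromosome 6, 41534047 to 41539741). One of 5603 bp with a fold of 20.2 covered the start of the noncoding RNA Gm19585, 314867 bp from Satb1, a chromatin organiser of T cells, and 307728 bp from any wild-type region. The list ended with 5570 bp in Mideas and 5552 bp near Ptprc, which encodes CD45, 11917 bp from the gene.

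The 3 knockout-only regions farthest from a coding gene lay on chromosomes 12 and 15. One, of 1523 bp, covered the variable segment Ighv1-54 of the immunoglobulin heavy chain locus, 853265 bp from Zfp386. The other two lay 833342 and 817945 bp from Myc, the growth regulator gene, with folds of 3.19 and 6.91.

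Among 1005 miRNA hairpins in the RefSeq table, 7 (0.697%) overlapped a knockout-only region. They were Mir155, Mir30a, Mir196b, Mir9-2, Gm51268 on its opposite strand, Mir7007 and Mir7058, and the mature forms of 4 of them are shown for their known roles, with the seed (bases 2 to 8) in capitals. Mature miR-155 is induced in activated T cells and is needed for their effector responses, whereas miR-196b lies in the HoxA cluster and miR-9 is best known from neurons.
mmu-miR-155-5p: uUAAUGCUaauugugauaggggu
mmu-miR-30a-5p: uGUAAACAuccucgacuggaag
mmu-miR-196b-5p: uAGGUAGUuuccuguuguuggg
mmu-miR-9-5p: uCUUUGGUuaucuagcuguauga
The Mir155 hairpin (chromosome 16, 84714140 to 84714204) lay in a region of 1609 bp with a fold of 12.7, 8734 bp from the nearest wild-type region. The Mir9-2 region was 2065 bp wide with a fold of 14.4 and lay 162151 bp from a wild-type region. The Mir30a and Mir196b regions had folds of 4.98 and 6.08 and widths of 1008 and 1102 bp. The 4 printed seeds differ from each other.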

How the data were processed

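H3K4me3 was profiled by chromatin immunoprecipitation in 1 knockout and 1 wild-type library of CD8+ tumour-infiltrating lymphocytes. Samples of H3K27me3 and of input chromatin in the series were left out and not analysed here. Peaks were called by the authors with MACS2 on GRCm38 (mm10), per the submitters' processing notes; version, settings, aligner and control use were not given in the sources used here. The deposited fold values are ratios of summit reads to local background within a library, and the deposited −log10 p and q values belong to the same summit. They were used only within a list. The deposited score, 10 times the −log10 q, was not used. Regions are compared by position alone.

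Genes came from the RefSeq table of GRCm38.p6 (21631 coding genes on chromosomes 1 to 19 and X), which gives no strand; starts and strand came from RefSeq promoter windows, found for 17274 of them. Regions were assigned to a gene if they overlapped it or the 1 kb on either side. Intervals were handled in Python 3.11.15 with NumPy 2.4.6, pandas 2.3.3 and SciPy 1.17.1, tested on simulated intervals, and plotted with Matplotlib 3.10.9.

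The regions, the 18 gene lists (321 genes) and the rules were chosen with earlier results of these data known. Named were the 10 regions with the highest fold, the 10 widest, the 3 farthest from a coding gene, the 2 nearest each width limit, the 10 genes and the 10 groups with the most regions, and up to 4 genes per list with the most length under them, passing over predicted genes. A gene that this rule would name is not reported here. Cd3e, Nkg7, Gzmb, Ifng, Klrk1, Klrc1, Klra1, the miRNAs, the promoters printed and the genes listed without a knockout-only region were named after their values were seen, as were the Klf13 and Arl4c groups and the Peli1 region folds, and the motifs were chosen after the data were seen. With 1 library per genotype no test was made.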

Additional observations from a re-analysis of the deposited data

How the results depend on the processing

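No paired analysis was possible because each genotype had 1 library and nothing was tested. The reported values were 3742 regions, 15.0% of mid-width knockout regions, 10.3% at a gene end, 57.5% elsewhere in a gene, 32.1% outside genes, 58.7% with a neighbour within 50 kb, 1695 genes and 12 T cell identity genes. Of 76 values under other settings, 48 stayed within the interval of a share or within 1.5 times a count. The number of T cell identity genes stayed within 1.5 times in each setting. With no wild-type region allowed within 1 kb the share of mid-width regions was 14.0%. When less than 25% overlap was allowed, it was 16.9%, with 11.8% at a gene end and 62.2% with a neighbour. With knockout −log10 q of at least 10 the share was 12.3%, with 52.8% having a neighbour. With wild-type −log10 q of at least 5 it was 17.5%, and 12.6% lay at a gene end. With 20000 regions kept in each list the share was 18.3%, with 31.4% at a gene end, 43.0% elsewhere in a gene, 25.6% outside and 42.1% with a neighbour. At widths from 1500 to under 4000 bp there were 1611 regions (10.7%) at 848 genes, with 9.06% at a gene end, 61.5% in a gene, 29.4% outside and 46.7% with a neighbour. With regions joined over 1 kb the share was 14.2% and 52.6% had a neighbour. Gene ends counted within 500 bp held 8.63%, and within 2.5 kb 14.8%, leaving 55.1% in genes and 30.1% outside. A neighbour was found for 47.0% within 25 kb and for 69.5% within 100 kb. Fewer regions in a set lower the chance of a neighbour by construction; the cause of the other shifts was not tested. Depth, which the lists do not state, limits what the absence of a call in the wild-type list can show.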

Other observations

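Antigen receptor segments under a knockout-only region were counted by locus. Of 114 variable segments of the T cell receptor alpha locus, 9 lay under a knockout-only region, and 28 lay under any knockout region against 1 under a wild-type region. Of its 51 joining segments, 6 lay under a knockout-only region and 38 under any knockout region. In the beta locus 6 of 22 variable and 6 of 13 joining segments lay under a knockout-only region. The region of 5695 bp named above covered the joining segments Trbj1-2 to Trbj1-7. Neighbouring segments can thus share 1 region, and the counts are not separate observations. In the immunoglobulin heavy chain locus, which B cells rearrange, 4 of 120 variable segments lay under a knockout-only region, with 19 under any knockout region and 2 under a wild-type region, beside 2 of 12 B cell genes with such a region. In the immunoglobulin light chain loci 0 of 102 kappa and 0 of 3 lambda variable segments lay under one, and likewise 0 of 7 gamma and 0 of 5 delta variable segments of the T cell receptor. For scale, 7.84% of coding genes had a knockout-only region in the gene or within 1 kb, a wider window than the segments themselves. The 9 of 114 alpha variable segments are near that share, and the gamma and delta loci have few segments. Of the segments, 0 lay under one of the weakest shared regions. Segments of a family resemble each other, no label states how such reads were filtered, and rearranged loci differ from the reference, so these positions are uncertain.

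The 7 T cell and NK cell lists that held a knockout-only region, without the CD4 and regulatory T cell list, had 18 genes with a start under one. Their 20 promoters had a median CpG ratio of 0.281 (0.0947 to 0.863), a median region width of 2237 bp and a median fold of 8.43 (4.98 to 24.9). The 3 promoters of Tox2, a relative of Tox, lay at the upper end of this range with ratios of 0.816, 0.855 and 0.863. In the other lymphocyte lists, Ccr4 and Cr2 had a start under a knockout-only region, with ratios of 0.188 and 0.581. These genes were named after their values were seen.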
